A study of Mus musculus with 16 samples.

Results

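The genes of calcium and magnesium reabsorption in the distal nephron were followed in the kidneys of mouse pups with and without aquaporin-11. They were 10 genes chosen by name, of 18193 that the array's annotation names: Trpm6, Trpv5, Calb1, S100g, Pvalb, Slc8a1, Casr, Cldn10, Cldn16 and Cldn19. Every probe set annotated to one of them was taken, which gave 17 of the 45101 probe sets on the array and covered 9 of the 10 genes. Trpv5, the calcium entry channel, had no probe set in the annotation and is not described further. Of the 17 probe sets, 15 from 8 genes passed the filter on low signal (at least 7 of 16 arrays above the array's 40th percentile) and were tested. The probe set of Pvalb and 1 of the 4 probe sets of Slc8a1 did not pass and stayed out of that fit. For Slc8a1 1420210_at only values are given, and Pvalb is given with its values, a fit without the filter and a comparison with Slc12a3.

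The kidneys came from 9 Aqp11-/- pups (5 males, 4 females) and 7 Aqp11+/+ littermates (3 males, 4 females), all 7 days old and born to heterozygous parents. The Aqp11 mutation arose in a 129/SvEvBrd background and was crossed back to C57BL/6, and the labels give C57BL/6J as the strain of every pup. The mutation is inherited and not confined to a cell type. RNA of each animal was hybridised alone to 1 Affymetrix Mouse Genome 430 2.0 array, and the comparison asks how the loss of Aqp11, an aquaporin of the endoplasmic reticulum, alters kidney gene expression. Arrays are named here by genotype and by the sample number of the labels, such as knockout 1-2.

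In the thick ascending limb, calcium and magnesium pass between the cells, through a pore that claudin-16 and claudin-19 form together, and the calcium-sensing receptor on the blood side of the cell restrains this flow. In the distal convoluted and connecting tubules the same ions pass through the cells. They enter by channels on the urinary side, calcium is carried by binding proteins, and it leaves by a sodium-calcium exchanger and calcium pumps. Vitamin D, parathyroid hormone, klotho and epidermal growth factor are known regulators of these steps.

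Signals below are log2 values after quantile normalisation, with values under a floor of 2.78 set to it, and are means ± SD over 9 knockout and 7 wild-type arrays. A log2 change is knockout minus wild type, and its adjusted p comes from limma with Benjamini-Hochberg adjustment over all 27377 probe sets tested. The brightest probe set of Aqp11 stood at 2.95 ± 0.33 in knockout, where 7 of 9 arrays were at the floor, and at 7.87 ± 0.16 in wild type, at least 30.3-fold lower in knockout (adjusted p = 7.78e-14). This probe set was above the filter only on wild-type arrays, and the floor narrows its knockout spread, so its p is descriptive. Of the other 2 probe sets of Aqp11, 1 fell by 1.75 on the log2 scale, with knockout arrays up to 5.25 that overlapped wild type (adjusted p = 0.00351). The other was too dim to test. The segment markers were present in both genotypes. Slc12a1, the salt transporter of the thick ascending limb, stood at 12.13 ± 0.13 in knockout and 12.23 ± 0.20 in wild type. Umod, which encodes uromodulin of the same segment, stood at 12.39 ± 0.19 in knockout and 12.17 ± 0.19 in wild type. Neither passed the test (adjusted p = 0.523 and 0.104). Slc12a3, the salt transporter of the distal convoluted tubule, fell by 0.37 on the log2 scale, with 10.27 ± 0.18 in knockout and 10.64 ± 0.14 in wild type (adjusted p = 0.00284). In whole kidney RNA, fewer cells of a type and less RNA per cell cannot be told apart.

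Of the 15 tested probe sets of the calcium and magnesium genes, 1 was lower in knockout, none was higher and 14 did not pass the test. That is 6.67% called, against 11.7% of all 27377 probe sets tested, of which 6.21% were higher and 5.46% lower. The median log2 change of the 15 was -0.04, against -0.01 over all probe sets tested. The gene that fell was Cldn10, which encodes a claudin of the thick ascending limb and the proximal tubule. Its probe set was also the only one of the 15 whose knockout arrays did not overlap the wild-type arrays, a separation seen in 3.75% of all probe sets tested (2.06% with the knockout arrays above and 1.69% with them below).

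**Figure D1:**
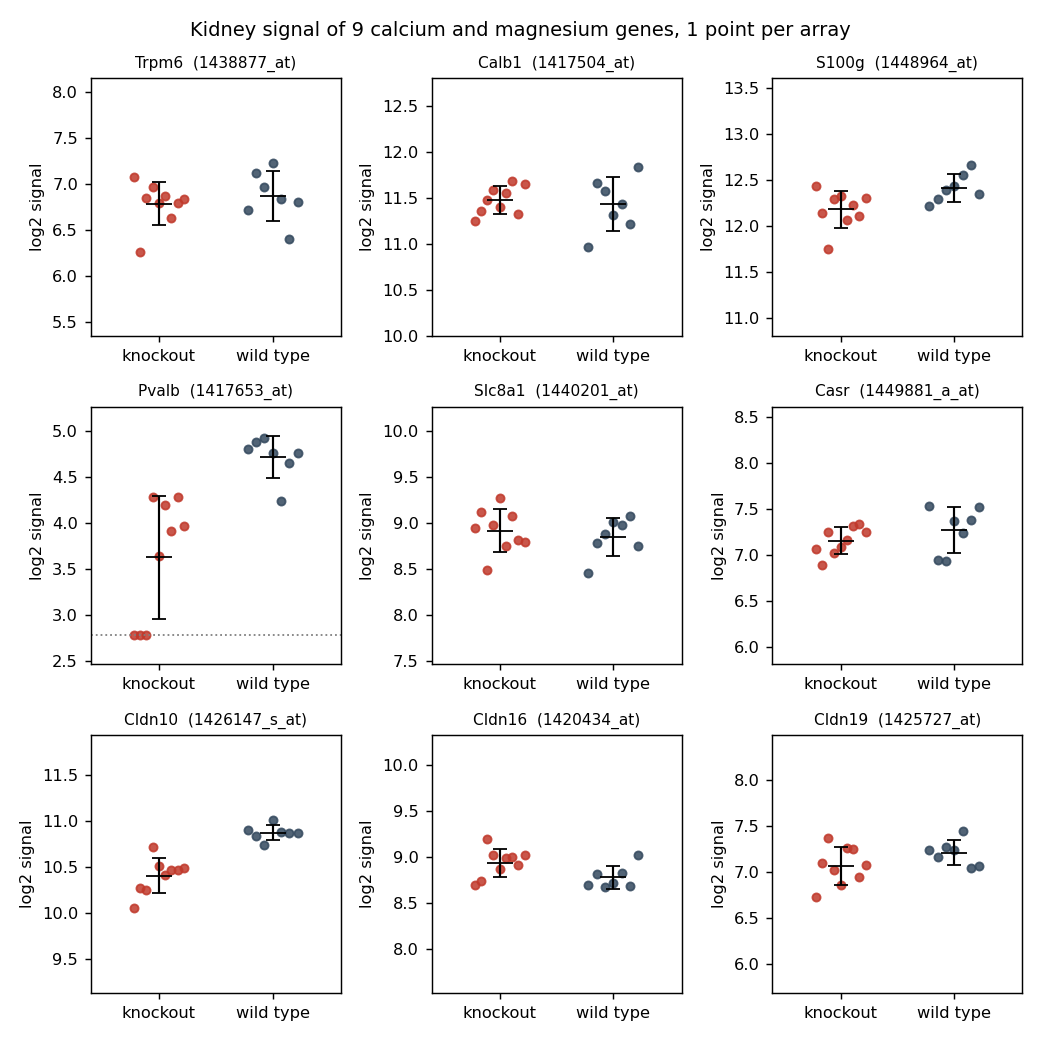
Log2 signal of 9 genes by genotype, 1 point per array, with the mean and SD as bars. The brightest probe set of each gene is shown, each panel spans its own range of log2 signal, and the dotted line in the Pvalb panel is the floor at 2.78. The knockout and wild-type points of Cldn10 do not overlap, those of Pvalb overlap at 1 wild-type array, and the other panels overlap widely.

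Cldn10 (probe set 1426147_s_at) ranged from 10.05 over a median of 10.47 to 10.71 on the knockout arrays. It ranged from 10.73 over a median of 10.87 to 11.01 on the wild-type arrays. Knockout 1-2 was the lowest and knockout 3-2 the highest of its genotype, just under the lowest wild-type array, 2-2. The means were 10.41 ± 0.19 in knockout and 10.87 ± 0.08 in wild type, so Cldn10 fell by 0.46 on the log2 scale (SE 0.07, adjusted p = 0.000185), a level 1.38-fold lower in knockout. The 95% interval of the ratio of knockout to wild type ran from 0.651 to 0.806. Its mean was lower in knockout in both sexes, with a difference of -0.50 in males (10.43 in knockout, 10.93 in wild type) and of -0.45 in females (10.38 in knockout, 10.83 in wild type). No difference between the sexes passed limma's test (interaction -0.05, SE 0.15, adjusted p = 0.919). In the 8 females alone, the fall missed the threshold (-0.45, adjusted p = 0.0797), and with the deposited values not normalised it also missed it (-0.47, adjusted p = 0.287).

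Cldn10 is known to be made as several variants from separate first exons. One serves as a sodium pore in the thick ascending limb and another as an anion pore in the proximal tubule. RefSeq (GRCm38.p6) lists 2 starts for mouse Cldn10, and the 300-base windows over each start are printed here because the array reports 1 value for the gene. The files do not tie its probes to transcripts, so variants from these starts were not measured apart. The windows are chr14:118787621-118787920 and chr14:118854700-118854999, both on the plus strand and written 5′ to 3′. Capitals mark the last 50 bases of each window, from the start of transcription on.
Cldn10 first start: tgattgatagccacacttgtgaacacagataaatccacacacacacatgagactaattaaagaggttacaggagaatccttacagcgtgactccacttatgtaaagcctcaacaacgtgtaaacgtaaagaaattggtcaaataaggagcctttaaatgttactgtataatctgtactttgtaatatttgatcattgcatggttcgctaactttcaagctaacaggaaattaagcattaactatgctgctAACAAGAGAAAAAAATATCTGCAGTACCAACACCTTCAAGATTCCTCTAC
Cldn10 second start: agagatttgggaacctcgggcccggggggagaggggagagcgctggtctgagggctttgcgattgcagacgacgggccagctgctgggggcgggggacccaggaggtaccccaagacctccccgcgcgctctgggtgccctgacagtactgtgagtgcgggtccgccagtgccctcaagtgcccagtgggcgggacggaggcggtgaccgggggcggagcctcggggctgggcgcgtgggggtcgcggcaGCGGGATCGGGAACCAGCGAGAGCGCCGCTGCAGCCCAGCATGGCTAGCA
The first window holds 36.0% G and C, and the second 72.0%. The TATA box, searched as TATAAA on both strands, is in neither Cldn10 window and occurs in 13.6% of 32851 mouse promoter windows of the same length. These counts describe the letters of the windows and nothing about binding in these kidneys.

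The proximal tubule was measured on the same arrays through 6 marker genes, of which 5 fell, none rose and 1 did not pass. Their mean log2 signal ran from 9.66 to 10.66 on knockout arrays and from 11.08 to 11.31 on wild-type arrays, without overlap. Knockout 1-2 and 2-3 had the lowest marker means, 9.73 and 9.66, and stood at 10.05 and 10.27 for Cldn10. Knockout 2-4 stood lower than 2-3 for Cldn10, at 10.25, though its marker mean was higher, at 10.25. The markers differed among themselves, with log2 changes of -2.07 for Slc5a2, -1.28 for Miox, -0.72 for Cubn, -0.64 for Slc34a1, -0.62 for Lrp2 and 0.06 for Slc22a6, which did not pass (adjusted p = 0.829). Cldn10 changed less than their mean, which Slc5a2 and Miox pull down. Its log2 signal minus their mean was 0.12 ± 0.26 in knockout and -0.29 ± 0.09 in wild type, a difference of 0.41 (exact permutation p = 0.000874, two-sided). This comparison was added after the data were seen. The part of the proximal tubule signal in the fall of Cldn10 was not tested.

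**Figure D2:**
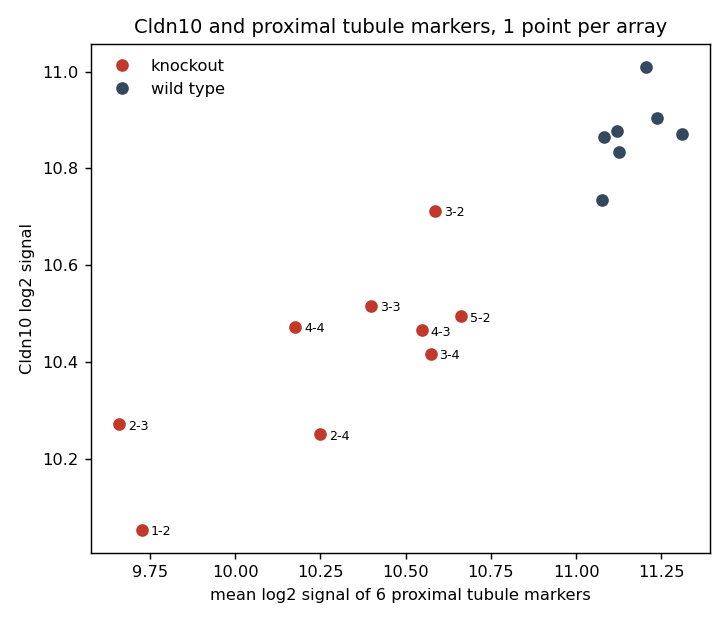
Cldn10 log2 signal against the mean log2 signal of 6 proximal tubule markers (Lrp2, Cubn, Slc34a1, Slc5a2, Slc22a6, Miox), 1 point per array, with knockout arrays named by sample number. The 9 knockout arrays lie below the 7 wild-type arrays on both axes, with marker means of 9.66 to 10.66 in knockout and 11.08 to 11.31 in wild type.

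The other claudins, Cldn16 and Cldn19, encode the partners of the cation pore of the thick ascending limb, and neither passed the test. Cldn16 (1420434_at) ranged from 8.70 over a median of 8.99 to 9.20 in knockout and from 8.68 over a median of 8.72 to 9.03 in wild type. Of the 9 knockout arrays 7 exceeded the wild-type mean, and the wild-type array 5-1 reached into the upper part of the knockout range. Its log2 change was 0.16 (SE 0.08, adjusted p = 0.205), with a 95% interval from 0.00 to 0.32. Cldn19 (1425727_at) ranged from 6.72 over a median of 7.07 to 7.37 in knockout and from 7.04 over a median of 7.23 to 7.44 in wild type. Of the knockout arrays 4 lay below the lowest wild-type array, and the others were inside the wild-type range. Its log2 change was -0.14 (SE 0.10, adjusted p = 0.414), with a 95% interval from -0.35 to 0.06.

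Set against each other within an array, the claudins changed unequally. These 3 comparisons were added after the data were seen, and their p-values are adjusted over the 3. Cldn10 minus Cldn16 was 1.46 ± 0.18 in knockout and 2.09 ± 0.15 in wild type, a difference of -0.62 (exact permutation, adjusted p = 0.000262). Cldn10 minus Cldn19 was 3.34 ± 0.26 in knockout and 3.66 ± 0.16 in wild type, a difference of -0.32 (exact permutation, adjusted p = 0.0133). The pore partners also moved apart. Cldn16 minus Cldn19 was 1.88 ± 0.14 in knockout and 1.58 ± 0.20 in wild type, a difference of 0.30 (exact permutation, adjusted p = 0.00735). The offsets between probe sets carry no meaning of their own, and only their difference between genotypes does. Within the knockout arrays Cldn16 and Cldn19 had a Pearson r of 0.75 and a Spearman rho of 0.61 (exact permutation p = 0.0211 and 0.0873). Neither passed after adjustment over the 16 correlations computed (exact permutation, adjusted p = 0.338 and 0.629). Without the 2 arrays farthest from the Cldn16 median, knockout 1-2 and 2-3, r was 0.80. Within the wild-type arrays r was -0.21 and rho -0.07 (exact permutation p = 0.613 and 0.906, adjusted p = 0.912 for both).

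Casr, the calcium-sensing receptor gene, was measured by 2 probe sets, and both gave small changes that did not pass the test. The probe set 1449881_a_at ranged from 6.89 over a median of 7.16 to 7.33 in knockout and from 6.93 over a median of 7.37 to 7.52 in wild type. Of the 7 wild-type arrays 4 exceeded every knockout array, and the other 3 lay inside the knockout range. Its log2 change was -0.12 (SE 0.10, adjusted p = 0.549), with a 95% interval from -0.33 to 0.10. The other, 1449882_a_at, gave -0.14 (SE 0.15, adjusted p = 0.669).

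**Figure D3:**
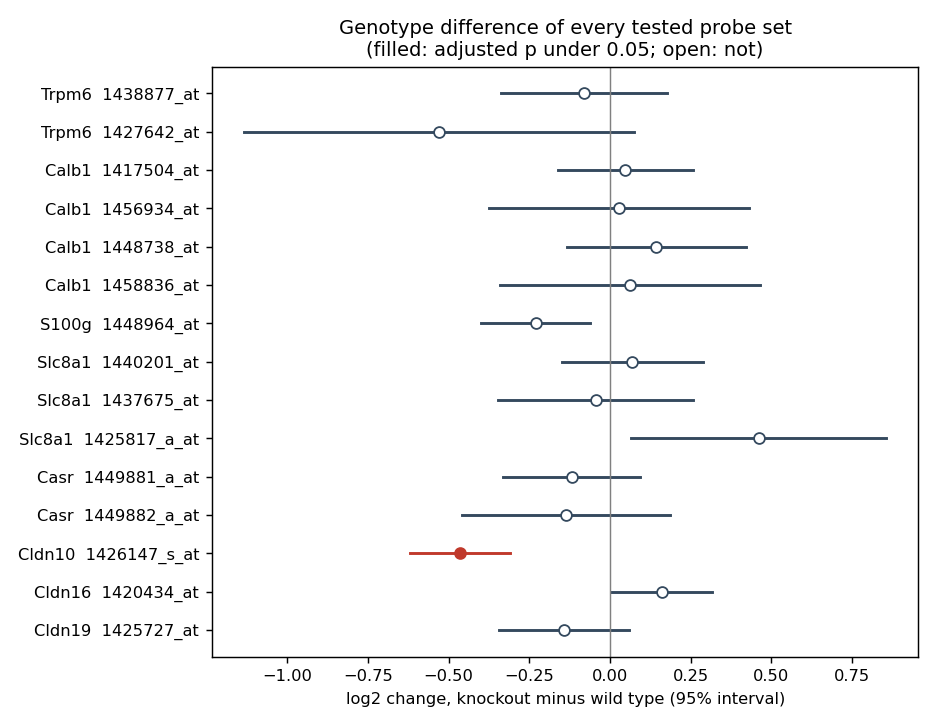
Log2 change, knockout minus wild type, of the 15 tested probe sets, with the 95% interval as a line. The filled point, Cldn10 at -0.46, has an adjusted p under 0.05, and the 14 open points do not. The widest interval, from -1.13 to 0.07, belongs to the Trpm6 probe set 1427642_at.

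Magnesium enters the distal convoluted tubule through the channel kinase encoded by Trpm6. Its brighter probe set, 1438877_at, ranged from 6.26 over a median of 6.84 to 7.07 in knockout and from 6.39 over a median of 6.83 to 7.23 in wild type. The medians lay close together, and knockout 2-3 was the lowest array of all. The log2 change was -0.08 (SE 0.12, adjusted p = 0.768), with a 95% interval from -0.34 to 0.18. The dimmer probe set, 1427642_at, stood at 4.86 ± 0.79 in knockout and 5.39 ± 0.32 in wild type. Knockout arrays fell on both sides of the wild-type range, 4 below it and 1 above it. The change was -0.53 (SE 0.29, adjusted p = 0.288), with an interval from -1.13 to 0.07, and it was -0.32 without knockout 4-4 (adjusted p = 0.432).

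Calb1 encodes the larger of the calbindins, the calcium carriers of the distal convoluted and connecting tubules. Its 4 probe sets did not pass the test. The brightest, 1417504_at, ranged from 11.24 over a median of 11.48 to 11.68 in knockout and from 10.96 over a median of 11.43 to 11.83 in wild type. All knockout arrays lay inside the wild-type range, which wild type 1-1 set at the low end and wild type 5-1 at the high end. The change was 0.05 (SE 0.10, adjusted p = 0.842), with a 95% interval from -0.16 to 0.26. The other 3 probe sets changed by 0.14, 0.06 and 0.03 (adjusted p = 0.582, 0.896 and 0.954). Wild type 1-1 was the lowest wild-type array for all 4.

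S100g encodes the smaller calbindin. It ranged from 11.75 over a median of 12.23 to 12.43 in knockout and from 12.22 over a median of 12.39 to 12.66 in wild type. Of the 9 knockout arrays 8 lay below the wild-type mean and 4 below the lowest wild-type array, while knockout 1-2, the highest, exceeded most wild-type arrays. The means were 12.18 ± 0.20 in knockout and 12.41 ± 0.15 in wild type, a log2 change of -0.23 (SE 0.08, adjusted p = 0.0744) with a 95% interval from -0.40 to -0.06. S100g passed the threshold when knockout 1-2 was left out (-0.26, adjusted p = 0.036), under 3 other scalings, and with the first sample number as a replicate block.

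Pvalb encodes parvalbumin, a calcium buffer of the first part of the distal convoluted tubule. Its probe set was above the filter on 6 arrays only, all of them wild type, and was not tested. On the knockout arrays it ranged from the floor of 2.78, where 3 arrays lay (1-2, 2-3 and 2-4), over a median of 3.92 to 4.29. On the wild-type arrays it ranged from 4.25 over a median of 4.76 to 4.93. No knockout array reached the wild-type mean, and the genotypes overlapped only at wild type 4-1. The means were 3.63 ± 0.67 in knockout and 4.72 ± 0.23 in wild type. In the fit without a filter the change was -1.09 (limma, adjusted p = 0.0167), which the floor understates. The floor also narrows the knockout spread, so this p is descriptive. Pvalb could be fitted under 3 of the alternatives, this one among them. It passed under 2 of the 3, with adjusted p up to 0.118 (limma). Parvalbumin is also abundant in skeletal muscle. Of 8 skeletal muscle markers, 6 were too dim to test, 2 were tested and neither passed. The mean of all 8 was 3.42 to 4.24 in knockout and 3.44 to 3.74 in wild type. The part of muscle in the Pvalb signal was not tested.

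Calcium leaves the cell through the exchanger encoded by Slc8a1. Its brightest probe set, 1440201_at, ranged from 8.48 over a median of 8.94 to 9.27 in knockout and from 8.45 over a median of 8.88 to 9.07 in wild type. Its change was 0.07 (SE 0.10, adjusted p = 0.768), with a 95% interval from -0.15 to 0.29. The probe set 1437675_at changed by -0.04 (SE 0.15, adjusted p = 0.900). The third tested one, 1425817_a_at, differed from these. It stood at 6.22 ± 0.38 in knockout and 5.75 ± 0.45 in wild type, with all 9 knockout arrays higher than the mean of wild type, and its change of 0.46 (SE 0.19, adjusted p = 0.136) did not pass the test. Without wild type 5-1, its highest wild-type array, the change was 0.58 (adjusted p = 0.0425). The fourth, 1420210_at, lay near the floor at 3.35 ± 0.55 in knockout and 3.44 ± 0.55 in wild type. Slc8a1 is also expressed in smooth muscle. Of 5 smooth muscle markers 3 rose (Tagln, and Acta2 and Cnn1, which lost their calls with arrays centred on the median, Acta2 also with the 75th percentile scaling), and their mean was 8.60 to 9.06 in knockout and 8.16 to 8.93 in wild type. Their part in the Slc8a1 signal was not tested.

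Each gene was also set against the salt transporter of a segment that makes it on the same array, which shows whether the pair changed unequally. Calb1 is also made in the connecting tubule, Slc8a1 in smooth muscle and Cldn10 in the proximal tubule. These differences therefore do not show a change within a segment. Slc12a3 served for Trpm6, Calb1, S100g, Pvalb and Slc8a1, and Slc12a1 for Casr, Cldn10, Cldn16 and Cldn19, each by its brightest probe set. Of the 9 genes, 4 had an adjusted p under 0.05, namely Calb1, Slc8a1, Cldn10 and Pvalb. The test was exact permutation of the genotype labels, two-sided, adjusted over the 9, and the smallest p the design allows is 8.74e-05. Pvalb was too dim for the fit across probe sets and was above the filter on wild-type arrays alone. Its p here is therefore descriptive and adds no support. Calb1 minus Slc12a3 was 1.21 ± 0.13 in knockout and 0.79 ± 0.32 in wild type, a difference of 0.42 (exact permutation, adjusted p = 0.011). Slc8a1 minus Slc12a3 was -1.35 ± 0.30 in knockout and -1.79 ± 0.21 in wild type, a difference of 0.44 (exact permutation, adjusted p = 0.0181). Both rises are relative to a transporter gene that itself fell. Pvalb minus Slc12a3 was -6.64 ± 0.56 in knockout and -5.91 ± 0.31 in wild type, a difference of -0.72 (exact permutation, adjusted p = 0.0207). With 3 knockout arrays at the floor, this difference is a bound, and the true one may be larger in size. Without wild type 2-2 the Pvalb difference was -0.65 (exact permutation, adjusted p = 0.0517).

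Cldn10 minus Slc12a1 was -1.73 ± 0.25 in knockout and -1.36 ± 0.18 in wild type, a difference of -0.37 (exact permutation, adjusted p = 0.011). Against the mean of the thick ascending limb markers in place of Slc12a1 it was -0.58 (exact permutation, adjusted p = 0.000787). That mean of 5 markers includes Cldn14, which itself rose (0.72, limma, adjusted p = 0.026) and pulls the mean up. The other markers, none of which passed, changed by 0.22 (Umod), -0.09 (Slc12a1), -0.09 (Ptger3) and -0.20 (Kcnj1). The remaining 5 of the 9 genes did not pass. Trpm6 differed by 0.29 relative to Slc12a3 (exact permutation, adjusted p = 0.0832), and by 0.36 without wild type 2-1 (exact permutation, adjusted p = 0.0256). S100g differed by 0.14 relative to Slc12a3 (exact permutation, adjusted p = 0.279). Relative to Slc12a1, Cldn16 differed by 0.25, Cldn19 by -0.05 and Casr by -0.03 (exact permutation, adjusted p = 0.128, 0.811 and 0.831). Relative to the same marker mean, with Cldn14 in it, these differences were 0.05, -0.26 and -0.23, and none passed (exact permutation, adjusted p = 0.689, 0.114 and 0.135).

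**Figure D4:**
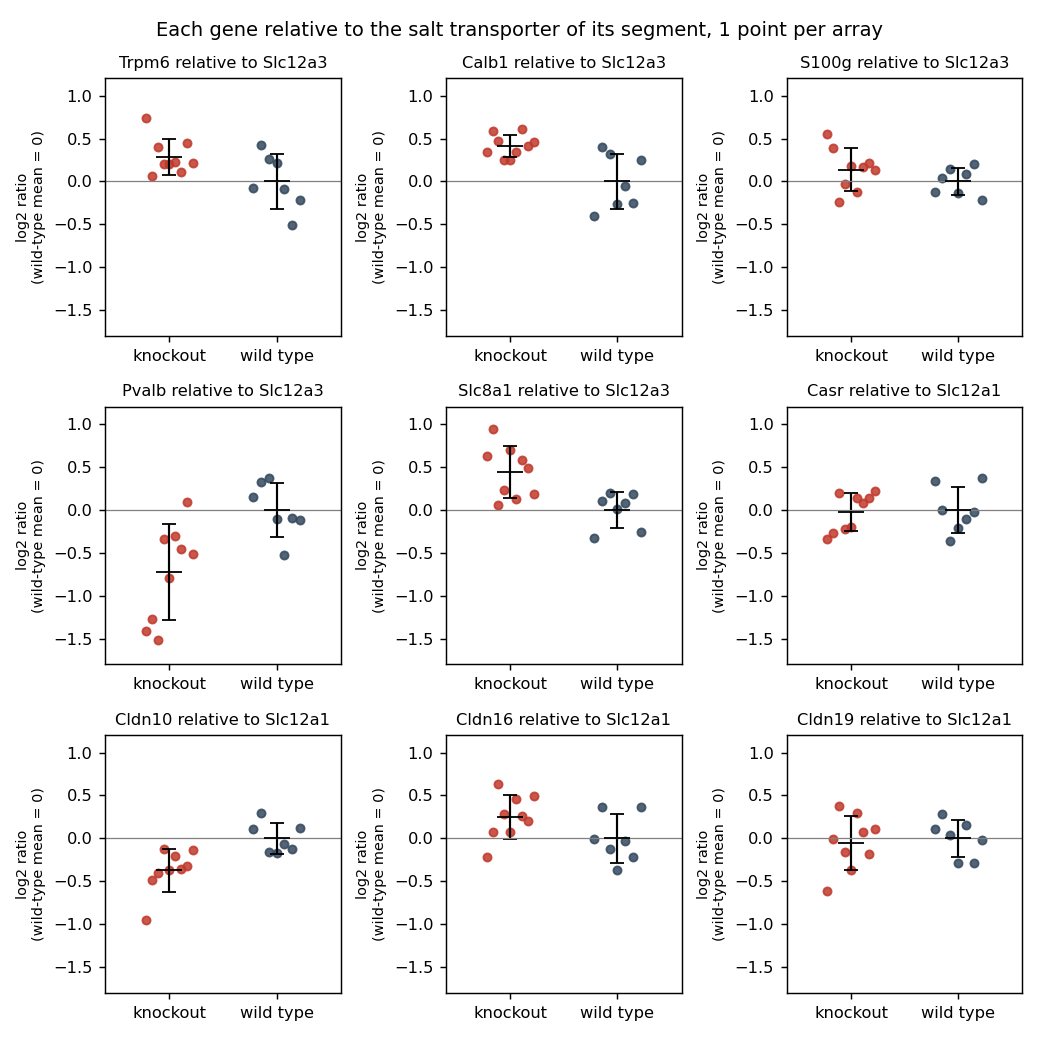
Log2 ratio of each gene to Slc12a3 or Slc12a1 on the same array, shifted so that the wild-type mean is 0, 1 point per array, with the mean and SD as bars. The knockout means lie 0.42 (Calb1) and 0.44 (Slc8a1) above the wild-type mean, and 0.72 (Pvalb, -0.72) and 0.37 (Cldn10, -0.37) below it.

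The probe sets were scanned for a sex effect. Of the 15, none differed between males and females (adjusted p = 0.999 for each, and none at an unadjusted p under 0.05), against 0.0767% of all probe sets tested. No genotype effect differed between the sexes for any of the 15 in limma's interaction test, which called 0 of 27377 probe sets. At an unadjusted p under 0.05 it held 2 of the 15, against 2790 of all. One was Calb1 1458836_at, with a change of 0.48 in males and -0.28 in females (limma interaction, adjusted p = 0.489). The other was Slc8a1 1437675_at, with 0.24 in males and -0.34 in females (limma interaction, adjusted p = 0.488).

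Other genes of the same routes were read from 5 lists, each gene by its brightest probe set. The background for these counts is 15.7% called among the brightest probe sets of 12499 named genes, with a median log2 change of 0.00. Among the entry, binding and exit partners of the calcium route, 2 of 7 tested rose, 1 fell and 4 did not pass (median 0.11). Klk1, tissue kallikrein, a protease made in the connecting tubule, stood at 10.80 ± 0.33 in knockout and 11.85 ± 0.26 in wild type without overlap, 2.07-fold lower in knockout (adjusted p = 1.24e-05). S100a10 and Anxa2, which form a complex that carries Trpv5 to the membrane, rose by 0.39 each (adjusted p = 0.00394 and 0.00362). Trpv6, a channel closely related to Trpv5, changed by 0.39 without passing (adjusted p = 0.375), and the calcium pump gene Atp2b1 by 0.11 (adjusted p = 0.3).

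Among 18 tested genes of magnesium transport and its inherited disorders, 1 rose, 3 fell and 14 did not pass (median 0.00). Egf, the growth factor that stimulates Trpm6, stood at 6.92 ± 0.45 in knockout and 8.83 ± 0.32 in wild type, 3.77-fold lower in knockout and without overlap (adjusted p = 2.34e-07). Egfr, its receptor, rose by 0.60 (adjusted p = 0.00136), with every knockout array above every wild-type array. Pcbd1, an enzyme that recycles the cofactor tetrahydrobiopterin, fell by 0.37 (adjusted p = 0.000113), and Fxyd2, a subunit of the sodium pump, fell by 0.23 (adjusted p = 0.00268). The knockout and wild-type arrays of both did not overlap. Trpm6 itself did not follow Egf across animals in a way that passed a test. Within knockout Pearson's r was 0.42 and Spearman's rho 0.05 (exact permutation p = 0.275 and 0.912), and r was -0.14 without knockout 1-2 and 2-3, the arrays farthest from the Trpm6 median. Within wild type r was -0.27 and rho -0.36 (exact permutation p = 0.569 and 0.444). The adjusted p was 0.912 for all 4. Of 4 gene pairs examined in this way, none passed after adjustment.

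Of 11 tested hormone and receptor genes, none rose, 2 fell and 9 did not pass (median -0.17). Kl, which encodes klotho, stood at 9.79 ± 0.33 in knockout and 10.59 ± 0.06 in wild type without overlap, 1.74-fold lower in knockout (adjusted p = 5.42e-05). Pth1r, the parathyroid hormone receptor gene, fell by 0.43 (adjusted p = 0.0022). In whole kidney RNA these 2 falls cannot be placed in the distal nephron, and the part of the proximal tubule in them was not tested. The estrogen receptor gene Esr1 changed by -0.31 and the fibroblast growth factor receptor gene Fgfr1 by 0.19 without passing (adjusted p = 0.0782 and 0.163). The vitamin D receptor gene Vdr changed by -0.17 (adjusted p = 0.299). The vitamin D hydroxylase genes varied widely within each genotype, with Cyp24a1 at 9.08 ± 0.88 in knockout and 9.54 ± 0.90 in wild type (adjusted p = 0.522).

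Of 12 tested transport and junction genes of the thick ascending limb, 2 rose, 3 fell and 7 did not pass (median -0.09). Cldn14, a claudin known to block the pore of claudin-16 and claudin-19, stood at 5.03 ± 0.25 in knockout and 4.32 ± 0.49 in wild type, a rise of 0.72 (adjusted p = 0.026). Its signal was dim, with wild-type arrays down to 3.64. Cldn3 rose by 0.92 with every knockout array above every wild-type array (adjusted p = 1.63e-05). Those that fell were the sodium-proton exchanger gene Slc9a3 (-0.60, adjusted p = 5.43e-05), Bsnd, the subunit of the kidney chloride channels (-0.64, adjusted p = 0.00183), and the potassium channel gene Kcnj16 (-0.40, adjusted p = 0.0043). In whole kidney RNA these changes cannot be placed in the thick ascending limb, and the part of other segments in them was not tested. Of 10 tested genes of salt transport in the distal convoluted tubule, none rose, 2 fell and 8 did not pass (median -0.12). Besides Slc12a3, the kinase gene Wnk1 fell by 0.24 (adjusted p = 0.00717). Sall3, a transcription factor gene, changed by -0.46 and the kinase gene Wnk4 by -0.16 without passing (adjusted p = 0.226 and 0.232).

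The calls of many of these genes depended on normalisation. With the deposited values not normalised, Egfr, Pcbd1, Fxyd2, Anxa2, S100a10, Pth1r, Cldn14, Slc9a3, Bsnd, Kcnj16, Slc12a3 and Wnk1 lost their calls, and Klk1, Egf, Kl and Cldn3 held theirs. Fxyd2 also lost its call with arrays centred on the median (adjusted p = 0.0629).

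**Figure D5:**
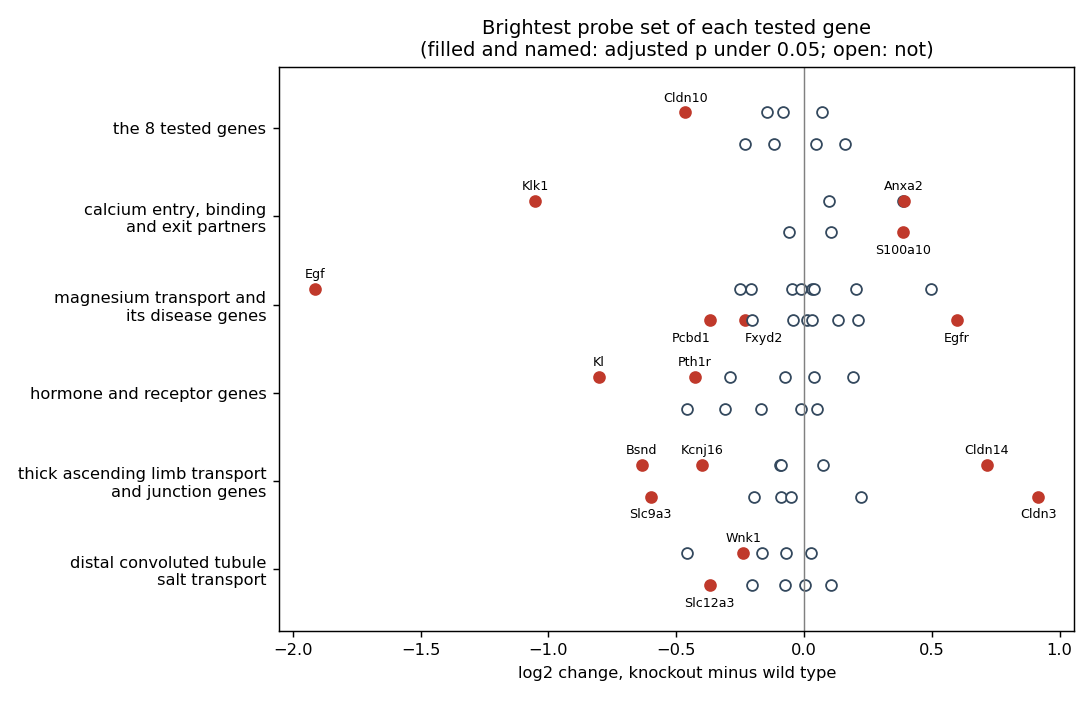
Log2 change, knockout minus wild type, of the brightest probe set of each tested gene in 6 lists, 1 point per gene. Filled points have an adjusted p under 0.05 and are named, from Egf at -1.91 to Cldn3 at 0.92, and open points do not, among them Trpv6, which lies under the point of Anxa2.

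Marker lists of other cells moved with genotype on the same arrays. All 7 macrophage markers and all 5 tubular injury markers rose, and 4 of 6 intercalated cell markers and 3 of 5 endothelial markers fell. Of 7 connecting tubule and principal cell markers 1 rose (Aqp2) and 2 fell (Avpr2, Klk1), and of 5 thick ascending limb markers 1 rose (Cldn14) and none fell. Their part in the results on the calcium and magnesium genes was not tested. Among adrenal, adipose and red blood cell markers, 1 of each list was bright enough to test and none passed.

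Over the 15 tested probe sets, a few animals set the extremes. Wild type 1-1 was the lowest wild-type array on 8 of them (all 4 of Calb1, S100g and 3 of Slc8a1), and wild type 5-1 the highest on 6. Knockout 1-2 was the lowest knockout array on 7, among them Cldn10, Cldn16 and Cldn19, and the highest on 2, Trpm6 1438877_at and S100g. Cldn10 kept its call without any 1 of the 16 arrays, with changes from -0.50 to -0.42.

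The genes whose array-to-array pattern was most like that of each gene were found by Pearson's r of deviations from the genotype mean over 16 arrays, among 12499 named genes. The arrays share normalisation, and the top of so many correlations is high by selection, so the values describe these 16 animals alone. For Cldn10 they were Fmo1 (r = 0.91), Slc16a4 (0.89) and Lpar3 (0.86). All 3 fell in knockout as Cldn10 did, with log2 changes of -0.74, -1.06 and -0.997. For Cldn16 they were Polb (0.92), Mtbp (0.91) and Arhgap28 (0.90), and for Calb1 Rps3 (0.90), 2700081O15Rik (0.90) and Dgcr8 (0.87). For Slc8a1 they were Dcun1d2 (0.90), Il33 (0.88) and Dnal1 (0.84), and for Trpm6 Atp8a1 (0.89), Gtf2ird2 (0.80) and Ssr4 (0.78). For Cldn19 they were Alg9 (0.87), Gm20346 (0.81) and Mus81 (0.80), for Casr B4gat1 (0.87), Pdk2 (0.84) and Higd1b (0.83), and for S100g Zfp383 (0.84), Dnal1 (0.82) and Ank1 (0.82). Of these, Il33 (0.94, adjusted p = 6.14e-06) and Ssr4 (0.26, adjusted p = 0.00531) rose and Pdk2 fell (-0.40, adjusted p = 0.00151), while the genes they resemble did not pass.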

How the data were processed

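Kidney RNA of 16 pups was measured, 1 array per animal. The deposited values are linear signal intensities from the GCOS 1.3 software, as named in the submitters' processing notes. Nothing in the labels says whether the authors scaled the arrays to each other. The 2% trimmed means ran from 124 to 236 over knockout arrays and from 111 to 211 over wild-type arrays, a 2.12-fold range, so the intensities were quantile normalised. A floor at the 20th percentile over all arrays (6.89 on the linear scale) was applied before log2 was taken. The floor understates changes of dim genes.

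Of 45101 probe sets, 64 controls were left out, and 27377 were tested with limma 3.58.1 in R 4.3.3 (genotype alone in the model, moderated variances with a trend, Benjamini-Hochberg at 0.05). Symbols came from the platform annotation, which gives 1 gene for 34958 probe sets, several for 932 and none for 9211, and 34754 of the first matched RefSeq GRCm38.p6. Promoter windows of 9 of the 10 genes matched, all but Calb1. Coordinates of probe sets are left out, since no source names the genome build of the array. None of the 10 genes lies on chromosome 7, which carries Aqp11.

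Genes named are every probe set of the 10 genes, Aqp11, Slc12a1, Umod and Slc12a3, the 4 genes of each list with the smallest p, marker lists as counts, and the 3 genes most like each gene. Trpv6, Vdr, Cyp24a1, Cldn14 and the marker genes named lie outside that rule and were named after their values were seen. The members and lists were chosen with earlier results of these data known. Exact permutation was run in R for genotype labels and in Python 3.11.15 for correlations, with ranks from scipy 1.17.1. Figures were drawn with matplotlib 3.10.9. Precision is limited by the number of animals.

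The fit was tested on simulated data: over 27377 probe sets it recovered 4% of log2 changes of 0.25, 36% of 0.5, 86% of 1 and 98% of 2, with 5 false among 117 calls. Only 50 probe sets of each size were changed there, so the adjusted threshold was stricter than in the data, where 3195 were called. These shares do not give the power of the real fit. Alternatives were other scalings, floors, filters, units of test, variance models, sex, the first sample number as a block, array brightness, each sex alone and each array left out. The brighter and dimmer arrays alone, and the comparisons of Cldn10 with the proximal markers and among the claudins, were added after seeing the data.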

Additional observations from a re-analysis of the deposited data

Results flagged for a closer look

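In 34 groups of arrays, 1 for each genotype and probe set, 4 held an array that lay far from the others of its genotype by Dixon's test, which chance does in about 1 group in 20. Knockout 4-4 was the lowest knockout array for Trpm6 1427642_at, at 3.15, against 4.54 to 5.91 on the other 8. Wild type 1-1 was the lowest wild-type array for Calb1 1448738_at, at 6.66, against 7.45 to 7.79 on the others. Wild type 4-1 was the lowest for Pvalb, at 4.25, against 4.66 to 4.93, and it is the array at which the genotypes overlap for that gene. Wild type 5-1 was the highest for Cldn16, at 9.03, against 8.68 to 8.83.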

How the results depend on the processing

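Cldn10 was lower in knockout under all 37 alternatives (-0.50 to -0.42) and called under 35. The exceptions were the deposited values not normalised (adjusted p = 0.287) and the 8 females alone (adjusted p = 0.0797). The count of called probe sets among the 15 was 1. It was 2 with arrays centred on the median, scaled to the 75th percentile or scaled to the trimmed mean, each adding S100g (adjusted p = 0.0404, 0.0347 and 0.044). It was also 2 without a filter (adding Pvalb), with array brightness as a covariate (adding Slc8a1 1425817_a_at, adjusted p = 0.038), on the brighter arrays alone (adding Pvalb, adjusted p = 0.0334) and with the dimmer arrays alone (adding S100g, adjusted p = 0.043). On the brighter arrays Pvalb passed the filter through wild-type arrays alone, where it is higher. In the fit without a filter, too, only wild-type arrays exceeded the filter's level. Neither call of Pvalb adds support. The count was 0 with the deposited values and 0 in females alone. With single arrays left out it was 1 to 2. With the first sample number as a replicate block it was 2 (adding S100g, adjusted p = 0.0485), and 2 with sex added (adjusted p = 0.0356). The study bred 5 pairs of parents and the numbers run to 5, but no label says that a number marks a pair. Same-numbered arrays of the other genotype correlated in their deviations with a mean r between -0.02 and 0.29 by number, under 0.1 for 4 of 5 numbers. The mean r was 0.05 for the same number and -0.01 for other numbers. Numbers 1 and 5 rest on 1 pair of arrays each. The numbers were not taken to pair the animals, but so few pairs cannot exclude that same-numbered animals share parents. As a hint only, 7 of 16 arrays had their closest array of the other genotype under their own number. Over all probe sets 3195 were called, 1700 higher and 1495 lower, and 573 with the deposited values (375 higher, 198 lower), 1865 in males, 790 in females, 1763 on the brighter arrays, 1466 on the dimmer arrays and 2567 to 3191 with single arrays left out. Of 55 called probe sets of the genes and lists, Aqp11 and the likeness genes, none changed direction under the 4 other scalings, while 24 lost their call with the deposited values, 5 with arrays centred on the median, 1 at the 75th percentile and 0 at the trimmed mean. Of the probe sets not called, Calb1 1456934_at changed sign in 8 of 35 alternatives and Slc8a1 1437675_at in 6 of 35. No alternative gave a sex effect or an interaction for the 15. Of 9 genes set against their segment transporter, 4 passed, counting Pvalb, whose p is descriptive, and 3 to 5 with single arrays left out. Against the mean of the segment's markers, or with the deposited values, 4 passed too. The cause of these shifts was not tested. Signal near the floor limits Pvalb and Slc8a1 1420210_at. Log2 changes of 0.5 or less were mostly missed in simulated data. Fewer probe sets changed there, which made the threshold stricter than in the real fit.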
